A study of Mus musculus with 24 samples.

Results

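The liver of mice that lost Bmal1 (gene symbol Arntl) from hepatocytes was compared with the liver of mice that kept it at ZT10, 10 h after lights on, late in the light phase and before the nightly meal. The comparison rests on 4 of the 24 libraries of the study, chosen by the genotype and the time in their labels: 2 HepKO libraries (Alb::Cre +/0, Bmal1 fl/fl) and 2 HepWT libraries (Alb::Cre 0/0, Bmal1 fl/fl). Both genotypes therefore carried floxed Bmal1 alleles, and the HepKO mice alone carried Cre. The albumin promoter that drives Cre is active in hepatocytes, so Kupffer cells and endothelium should keep the gene. The loss in each cell type was not measured here. All mice were C57BL/6, 8 to 12 weeks old, and had food at night only. The same genotypes were sampled at ZT2, 6, 14, 18 and 22, again with 2 libraries each, and these 20 libraries served as the setting against which the late light values were read. No source used here says whether each library came from its own animal, so p values measure the spread between these samples, which may be technical in part.

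The circadian clock of the liver is a feedback loop of transcription. BMAL1 pairs with CLOCK or NPAS2, binds E-boxes, and drives the Per and Cry genes, whose proteins then inhibit the pair, and the Nr1d1 and Nr1d2 genes, whose REV-ERB proteins repress Arntl, Npas2, Cry1 and Nfil3 through ROR response elements. The loop also drives the PAR bZIP factors DBP, TEF and HLF, which act on D-box elements of metabolic genes and are opposed there by NFIL3. In the liver of night-fed mice, REV-ERB repression is strong in the second part of the light phase, and many E-box and D-box targets are near their daily peak around the same hours.

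Counts per gene were scaled to CPM, the count as a share of its library, with TMM factors. The table lists 35304 genes, of which 17275 passed the count filter and were tested with edgeR's quasi-likelihood method, whose spread came from all 12 groups. Differences are HepKO minus HepWT on the log2 scale with their standard error (SE), and p values were adjusted over all tested genes by the Benjamini-Hochberg method, with 0.05 as the threshold. The HepKO libraries at ZT10 held 25448771 and 15515228 counts, against 29550130 and 30677807 counts in the HepWT libraries. Replicate 2 of HepKO is 1 of 5 HepKO libraries of low depth (12997689 to 16910415 counts). These 5 are replicate 2 of every time but ZT2, and their names in the deposited counts carry an ending that no source used here explains. No source used here gives the strand setting of the counting. Genes with a partner on the other strand (Nr1d1 with Thra, Dbp with Sphk2, Elovl3 with Pitx3, Grk5 with Zfp950, Asap2 with Itgb1bp1, Slc5a6 with Atraid, Acaa1a with Myd88) are uncertain to that extent.

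The deleted gene was examined first. Arntl (ENSMUSG00000055116, chr7:113207465-113314126, plus strand, GRCm38) had 11.9 and 10.3 CPM in HepKO, against 1.27 and 1.397 CPM in HepWT at ZT10. Both HepKO libraries lay far above both HepWT libraries, and the difference passed the test (log2 difference 3.05 ± 0.21, adjusted p = 9.87e-08). The direction was the opposite at ZT2 and ZT22, where HepKO was lower by the test, with log2 differences of -1.51 and -1.31 (adjusted p = 7.07e-05 and 0.000355). Mean Arntl in HepKO was 11.1 CPM at ZT10 and 15.7 CPM at ZT2, whereas HepWT had 1.33 CPM at ZT10, its lowest of the 6 times, and 44.9 CPM at ZT2. Whole-gene counts include exons outside the floxed part, so they do not measure the deletion itself at any time.

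The partners of BMAL1 were higher in HepKO as well. Npas2, the paralogue of Clock, had 19.2 and 21.3 CPM in HepKO, against 0.109 and 0.166 CPM in HepWT. Its HepWT level was at its daily minimum, and the libraries of the genotypes did not overlap (log2 difference 7.13 ± 0.38, adjusted p = 4.84e-09). Clock had 121 and 123 CPM in HepKO, against 52.6 and 52.8 CPM in HepWT, again with no overlap (log2 difference 1.21 ± 0.12, adjusted p = 4.35e-06). The repressor gene Cry1 rose too, with 58.8 and 56.7 CPM in HepKO, against 9.86 and 9.28 CPM in HepWT (log2 difference 2.59 ± 0.15, adjusted p = 7.14e-09). So did the bZIP repressor gene Nfil3, with 27.4 and 26.3 CPM in HepKO, against 11.5 and 7.75 CPM in HepWT (log2 difference 1.49 ± 0.24, adjusted p = 0.000758). In each of these, both HepKO libraries were above both HepWT libraries.

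Several other repressor genes moved the other way. Nr1d2 (REV-ERB beta) had 34.6 and 35.5 CPM in HepKO, against 179 and 177 CPM in HepWT, and both HepKO libraries were at about the same low level (log2 difference -2.34 ± 0.17, adjusted p = 1.08e-07). Nr1d1 (REV-ERB alpha) had 6.44 and 6.16 CPM in HepKO, against 27.5 and 31.9 CPM in HepWT (log2 difference -2.24 ± 0.34, adjusted p = 0.000427). The period gene Per3 had 12.9 and 13.8 CPM in HepKO, against 51.2 and 69.8 CPM in HepWT, with the HepWT libraries apart from each other but both well above HepKO (log2 difference -2.18 ± 0.16, adjusted p = 2.02e-07). Ciart, an inhibitor of the CLOCK and BMAL1 pair, had 1.33 and 1.88 CPM in HepKO, against 16.1 and 19.1 CPM in HepWT (log2 difference -3.48 ± 0.31, adjusted p = 1.84e-06). Bhlhe41 (DEC2), an E-box repressor, had 0.796 and 0.842 CPM in HepKO, against 6.67 and 5.62 CPM in HepWT (log2 difference -2.90 ± 0.41, adjusted p = 0.000256). Its relative Bhlhe40 (DEC1) had 49.7 and 48.0 CPM in HepKO, against 107 and 91.8 CPM in HepWT, which passed with all libraries (log2 difference -1.02 ± 0.21, adjusted p = 0.00509) but not without HepKO replicate 1, HepKO replicate 2 or HepWT replicate 1 of ZT10 (adjusted p = 0.0514, 0.0559 and 0.0582).

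The remaining clock genes did not pass at ZT10. Per1 had 16.2 and 14.8 CPM in HepKO, against 20.1 and 18.6 CPM in HepWT (log2 difference -0.32 ± 0.39, adjusted p = 0.731). Per2 had 22.2 and 26.0 CPM in HepKO, against 29.7 and 35.5 CPM in HepWT, with both HepKO libraries below both HepWT libraries (log2 difference -0.44 ± 0.20, adjusted p = 0.222). Cry2 had 37.3 and 34.4 CPM in HepKO and 40.7 and 34.0 CPM in HepWT, which overlapped (log2 difference -0.06 ± 0.18, adjusted p = 0.911), and Rora had 149.7 and 152 CPM in HepKO and 145 and 146 CPM in HepWT (log2 difference 0.05 ± 0.12, adjusted p = 0.878). Of the 15 core clock genes, 5 rose, 6 fell and 4 did not pass, which gives a median log2 difference of -0.32 at ZT10, beside -0.01 over all tested genes. Of all tested genes, 3.73% were called higher and 3.98% lower at this time.

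**Figure D1:**
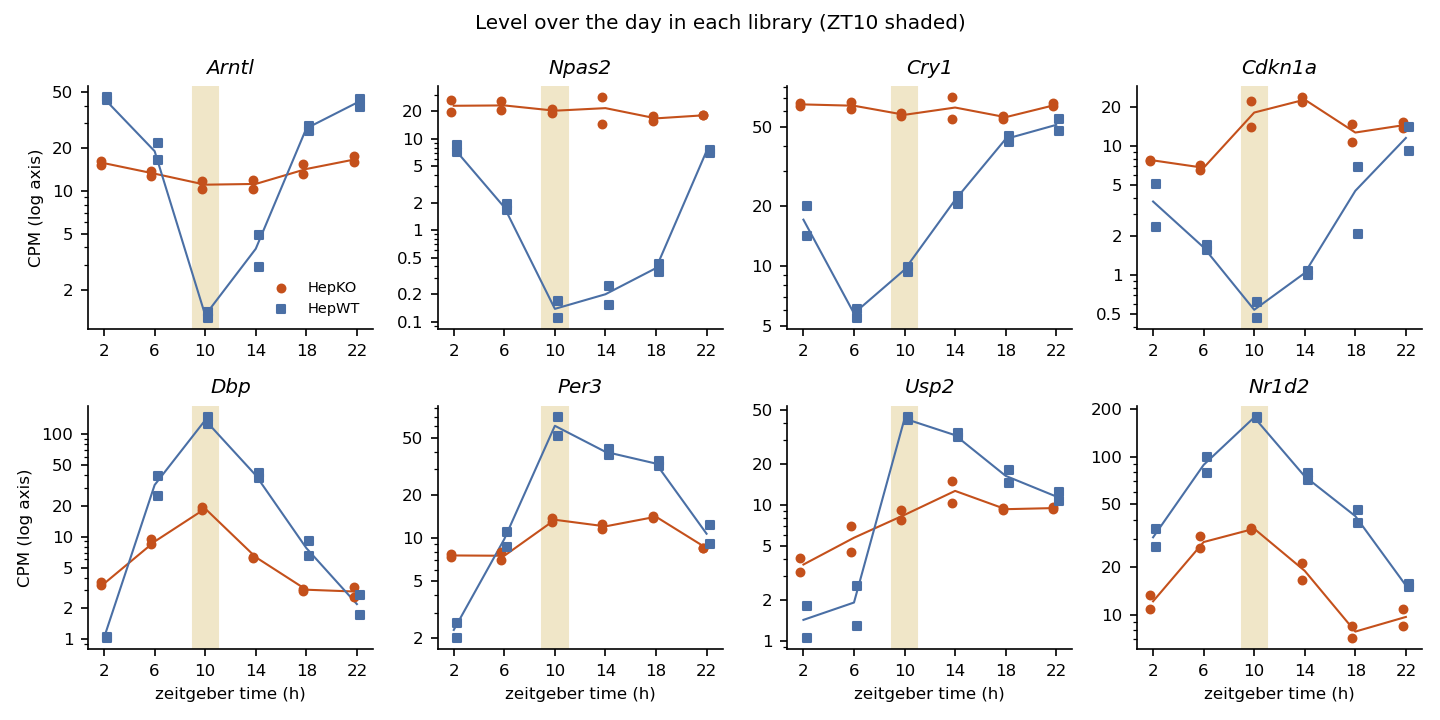
Level in CPM (log axis) of 8 genes against zeitgeber time in hours, with 1 circle per HepKO library, 1 square per HepWT library and lines through the means of 2 libraries; ZT10 is shaded. HepWT falls to its lowest level at ZT10 for Arntl, Npas2 and Cdkn1a and reaches its highest for Dbp, Per3, Usp2 and Nr1d2.

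The PAR bZIP factors and the genes listed as clock output were mostly lower in HepKO at ZT10. Dbp, whose level swings widely over the day in liver, had 18.1 and 19.4 CPM in HepKO, against 127 and 148 CPM in HepWT at the time of its HepWT maximum (log2 difference -2.87 ± 0.19, adjusted p = 6.37e-08). Tef had 113 and 109 CPM in HepKO, against 256 and 246 CPM in HepWT (log2 difference -1.18 ± 0.12, adjusted p = 8.91e-06). Hlf had 31.2 and 31.7 CPM in HepKO, against 46.4 and 41.3 CPM in HepWT, which did not pass (log2 difference -0.48 ± 0.17, adjusted p = 0.102). Usp2, a ubiquitin-specific protease, had 7.77 and 9.14 CPM in HepKO, against 44.4 and 41.8 CPM in HepWT (log2 difference -2.36 ± 0.25, adjusted p = 9.11e-06). Wee1, the kinase that restrains entry into mitosis, had 7.12 and 7.52 CPM in HepKO, against 28.1 and 25.2 CPM in HepWT (log2 difference -1.87 ± 0.18, adjusted p = 3.72e-06). Coq10b, a coenzyme Q binding protein of mitochondria, had 23.6 and 26.0 CPM in HepKO, against 75.2 and 76.8 CPM in HepWT (log2 difference -1.62 ± 0.13, adjusted p = 6.84e-07). Nampt, the rate-limiting enzyme of NAD salvage, had 53.3 and 60.7 CPM in HepKO, against 124 and 146 CPM in HepWT (log2 difference -1.25 ± 0.11, adjusted p = 1.25e-06). For each gene that passed, the HepWT libraries were both above the HepKO libraries. In this list of 14 tested genes 9 fell, 2 rose (Nfil3 and Lonrf3, log2 differences of 1.49 and 1.81) and 3 did not pass, with a median log2 difference of -1.41 at ZT10 and -0.34 over the other 5 times.

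Promoter sequence was read for genes of these groups, in the windows from 250 bases before to 50 bases after a RefSeq start, and stretches of 6 ZT10-weighted genes with a match are printed as examples of the elements the background names. E-boxes were also found in the windows of Cry1, which was higher in HepKO, of Ciart and Bhlhe41, which were lower, and of Per1, which did not pass. Capitals mark a ROR response element core (TAGGTCA, or TGACCTA on the other strand), an E-box (CACGTG) or a D-box (TTATGTAA, or TTACATAA on the other strand). Sequences are from RefSeq, build GRCm38.p6, written 5′ to 3′ on the strand of the gene. The stretch of Arntl is chr7:113207530-113207558 (plus strand) and lies just after the start of the gene. That of Nfil3 is chr13:52981034-52981062 (minus strand) and spans its start. Slc45a3, chr1:131970359-131970608 (plus strand), is before an internal start of the gene, and Tef, chr15:81811164-81811413 (plus strand), is likewise before an internal start. Per3 is chr4:151044666-151044915 (minus strand), and Coq10b is chr1:55052520-55052769 (plus strand), both directly before the gene.
Arntl: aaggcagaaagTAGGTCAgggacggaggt
Nfil3: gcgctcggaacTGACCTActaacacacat
Slc45a3: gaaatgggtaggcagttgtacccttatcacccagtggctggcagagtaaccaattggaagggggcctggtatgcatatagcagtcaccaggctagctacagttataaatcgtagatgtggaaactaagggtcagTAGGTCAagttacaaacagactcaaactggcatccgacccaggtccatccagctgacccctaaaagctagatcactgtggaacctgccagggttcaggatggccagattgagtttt
Per3: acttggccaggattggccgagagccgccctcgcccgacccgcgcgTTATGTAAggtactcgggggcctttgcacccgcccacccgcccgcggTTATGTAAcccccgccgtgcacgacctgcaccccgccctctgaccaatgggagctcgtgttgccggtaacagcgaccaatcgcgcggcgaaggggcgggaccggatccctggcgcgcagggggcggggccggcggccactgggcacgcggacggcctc
Coq10b: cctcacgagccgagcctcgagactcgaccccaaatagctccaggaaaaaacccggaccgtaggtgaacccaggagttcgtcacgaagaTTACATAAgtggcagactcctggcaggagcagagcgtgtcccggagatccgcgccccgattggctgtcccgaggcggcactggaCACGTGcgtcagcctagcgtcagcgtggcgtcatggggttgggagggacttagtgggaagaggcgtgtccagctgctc
Tef: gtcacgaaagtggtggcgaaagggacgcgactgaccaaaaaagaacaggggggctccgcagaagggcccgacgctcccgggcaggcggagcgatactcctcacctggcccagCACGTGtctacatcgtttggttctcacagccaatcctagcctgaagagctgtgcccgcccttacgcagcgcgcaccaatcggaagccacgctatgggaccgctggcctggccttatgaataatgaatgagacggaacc
The first 3 belong to genes that were higher in HepKO at ZT10 and hold a ROR element core. The last 3 belong to genes that were lower: Per3 holds 2 D-boxes, Coq10b a D-box and an E-box, and Tef an E-box.

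Over all tested genes at ZT10, 644 were higher and 688 lower in HepKO, which is 3.73% and 3.98% of 17275 and together 1332 genes (7.71%). At least 2-fold were 289 of the higher genes (1.67% of all) and 262 of the lower genes (1.52% of all). In all 1332 called genes the 2 HepKO libraries lay on 1 side of the 2 HepWT libraries, but so they did for 25.8% (higher) and 27.4% (lower) of all tested genes, so separation alone says little with 2 libraries a group. The counts depend on having 2 libraries in each group. Without 1 of the 4 ZT10 libraries they were 321 higher and 246 lower (HepKO replicate 1 left out), 352 and 319 (HepKO replicate 2), 313 and 325 (HepWT replicate 1) or 321 and 369 (HepWT replicate 2). Without all 5 HepKO libraries of low depth they were 292 and 222.

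Late light was 1 of the 2 times with the most calls. Genes higher and lower numbered 163 and 158 at ZT2 (0.944% and 0.915% of tested genes), 440 and 417 at ZT6 (2.55% and 2.41%), 795 and 525 at ZT14 (4.6% and 3.04%), 360 and 294 at ZT18 (2.08% and 1.7%), and 145 and 88 at ZT22 (0.839% and 0.509%). Lower calls were most numerous at ZT10, and higher calls at ZT14. Of the 1332 genes called at ZT10, 729 (54.7%) had their largest absolute difference of the 6 times at ZT10, beside 19.9% of all tested genes, and 326 (24.5%) had it at ZT14. The first share follows in part from picking genes by their difference at ZT10 and is not evidence about late light. Of the 644 genes higher at ZT10, 411 were also called higher at ZT14 (63.8% of the ZT10 genes and 51.7% of the ZT14 genes) and 236 at ZT6 (36.6% and 53.6%). Of the 688 lower genes, 305 were also lower at ZT14 (44.3% and 58.1%) and 207 at ZT6 (30.1% and 49.6%). At no other time were 163 of the higher genes (25.3%) and 257 of the lower genes (37.4%) called the same way, while 56 and 31 were called the same way at all 6 times. A gene called at ZT10 alone is not thereby shown to differ between times, and that difference is tested further on.

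**Figure D2:**
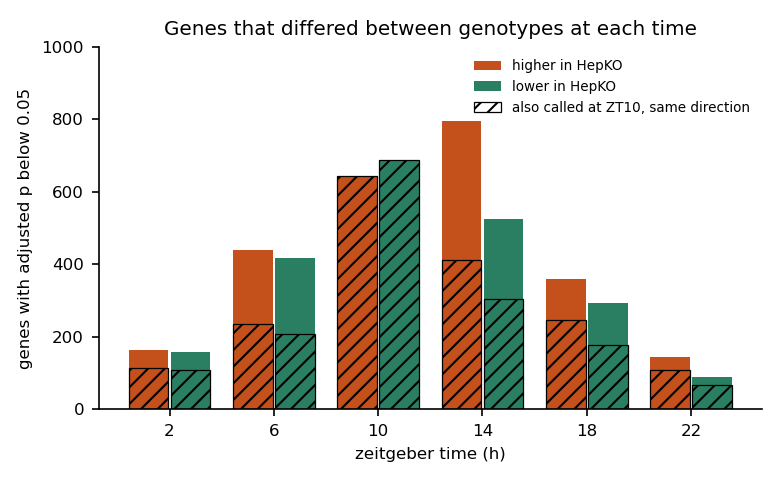
Number of genes with an adjusted p below 0.05 between genotypes (vertical axis) at each zeitgeber time in hours (horizontal axis), higher in HepKO and lower in HepKO, with the genes also called in the same direction at ZT10 hatched. Lower calls peak at ZT10 with 688 and higher calls at ZT14 with 795.

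The largest increases at ZT10 included genes nearly silent in HepWT liver at this hour. Moxd1, a copper monooxygenase of male-biased expression in liver, had 139 and 139 CPM in HepKO, against 0.797 and 0.366 CPM in HepWT (log2 difference 7.91 ± 1.31, adjusted p = 0.000871), a call that limma-voom did not make (adjusted p = 0.129). Its low HepWT level was not particular to this hour, as no HepWT library of any time was above 0.797 CPM. Over the day its HepKO libraries ran from 19.3 to 378 CPM, with both extremes at ZT14. Slc34a2, which carries phosphate into cells together with sodium, had 32.5 and 27.0 CPM in HepKO, against 0.254 and 0.399 CPM in HepWT (log2 difference 6.48 ± 0.57, adjusted p = 1.32e-06). Cdkn1a, which encodes the cell cycle inhibitor p21, had 22.2 and 14.2 CPM in HepKO, against 0.616 and 0.466 CPM in HepWT (log2 difference 5.08 ± 0.50, adjusted p = 4.52e-06). HepWT was below 1 CPM in both libraries for all 3 genes, and HepKO was above 14 CPM. The neurotrophin receptor gene Ntrk2 had 41.3 and 24.8 CPM in HepKO, against 0.254 and 0.865 CPM in HepWT (log2 difference 5.85 ± 0.77, adjusted p = 0.000102), and Srgap3, a GTPase-activating protein, had 18.0 and 17.8 CPM in HepKO, against 0.616 and 0.299 CPM in HepWT (log2 difference 5.29 ± 0.60, adjusted p = 2.29e-05). The largest changes, here and below, were picked only where the libraries of the genotypes did not overlap. That separation is therefore not further evidence.

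Several abundant genes also rose. Elovl3, an elongase of very long chain fatty acids, had 862 and 824 CPM in HepKO, against 73.0 and 60.0 CPM in HepWT (log2 difference 3.66 ± 0.42, adjusted p = 2.39e-05). Lpl, the lipoprotein lipase that adult liver normally expresses weakly, had 336 and 426 CPM in HepKO, against 26.9 and 45.7 CPM in HepWT (log2 difference 3.39 ± 0.47, adjusted p = 0.000167). Both genes had non-overlapping libraries, as had Grk5, which phosphorylates G protein-coupled receptors (61.8 and 65.8 CPM in HepKO and 5.11 and 4.66 CPM in HepWT, log2 difference 3.71 ± 0.14, adjusted p = 5.5e-11). Loxl4, an enzyme that cross-links collagen, had 53.8 and 29.9 CPM in HepKO, against 2.17 and 2.36 CPM in HepWT (log2 difference 4.21 ± 0.23, adjusted p = 6.95e-09). Raet1d, of a family of NKG2D ligands, had 88.2 and 85.3 CPM in HepKO, against 14.1 and 2.73 CPM in HepWT (log2 difference 3.38 ± 0.83, adjusted p = 0.017), and its call was lost without either HepKO library or without HepWT replicate 2 of ZT10 (adjusted p = 0.0689, 0.0573 and 0.167). The log2 difference of Lpl was 2.56, 2.39, 4.29, 3.69 and 2.83 at ZT2, 6, 14, 18 and 22, and that of Grk5 was 2.49, 2.87, 3.61, 3.68 and 3.04. Both genes were thus higher in HepKO throughout the day, and the excess of ZT10 over the other times did not pass (0.24 ± 0.47 (adjusted p = 0.957) for Lpl and 0.57 ± 0.15 (adjusted p = 0.122) for Grk5).

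Among the largest decreases, Ugt1a9, a glucuronosyltransferase whose annotation shares exons with the other Ugt1a genes, had 5.11 and 11.7 CPM in HepKO, against 77.0 and 77.7 CPM in HepWT (log2 difference -3.25 ± 0.33, adjusted p = 7.01e-06). Cyp2a5, the coumarin hydroxylase of mouse liver, had 114 and 208 CPM in HepKO, against 1073 and 811 CPM in HepWT (log2 difference -2.55 ± 0.35, adjusted p = 0.000155). Dio1, the deiodinase that activates thyroid hormone in liver, had 28.8 and 31.3 CPM in HepKO, against 178 and 176 CPM in HepWT (log2 difference -2.56 ± 0.46, adjusted p = 0.00174). In all 3 genes both HepKO libraries lay well below both HepWT libraries. Mme, the peptidase neprilysin, had 3.49 and 6.61 CPM in HepKO, against 35.6 and 56.7 CPM in HepWT (log2 difference -3.24 ± 0.45, adjusted p = 0.000166). Arrdc3, an arrestin-domain protein, had 40.3 and 39.5 CPM in HepKO, against 299 and 301 CPM in HepWT, with replicates nearly equal in each genotype (log2 difference -2.91 ± 0.51, adjusted p = 0.00152). Pcsk4, a proprotein convertase, had 4.43 and 3.11 CPM in HepKO, against 21.97 and 22.3 CPM in HepWT (log2 difference -2.53 ± 0.24, adjusted p = 3.43e-06).

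In other large decreases the adjusted p passed the threshold with all libraries but not without some single ones. Saa2, the acute phase protein serum amyloid A2, had 3.11 and 2.20 CPM in HepKO, against 116 and 19.8 CPM in HepWT, with HepWT replicate 1 far above HepWT replicate 2 (log2 difference -4.64 ± 1.27, adjusted p = 0.0314). Without HepWT replicate 1 of ZT10 the adjusted p was 0.307, and without HepKO replicate 1 or HepKO replicate 2 it was 0.205 and 0.195. Trib3, a pseudokinase induced by stress, had 0.947 and 1.36 CPM in HepKO, against 9.75 and 10.7 CPM in HepWT (log2 difference -3.18 ± 0.56, adjusted p = 0.00159), with an adjusted p of 0.0514 without HepKO replicate 1, while its log2 difference stayed between -3.42 and -2.90 in all 36 alternatives. Clec2h, a C-type lectin, had 3.90 and 9.65 CPM in HepKO, against 43.7 and 48.5 CPM in HepWT (log2 difference -2.81 ± 0.54, adjusted p = 0.00283), and 0.0752 without HepKO replicate 1. The water channel gene Aqp4 had 1.48 and 3.89 CPM in HepKO, against 10.7 and 23.5 CPM in HepWT (log2 difference -2.75 ± 0.61, adjusted p = 0.00832), with an adjusted p of 0.158 without HepKO replicate 1 and 0.104 without HepWT replicate 2.

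**Figure D3:**
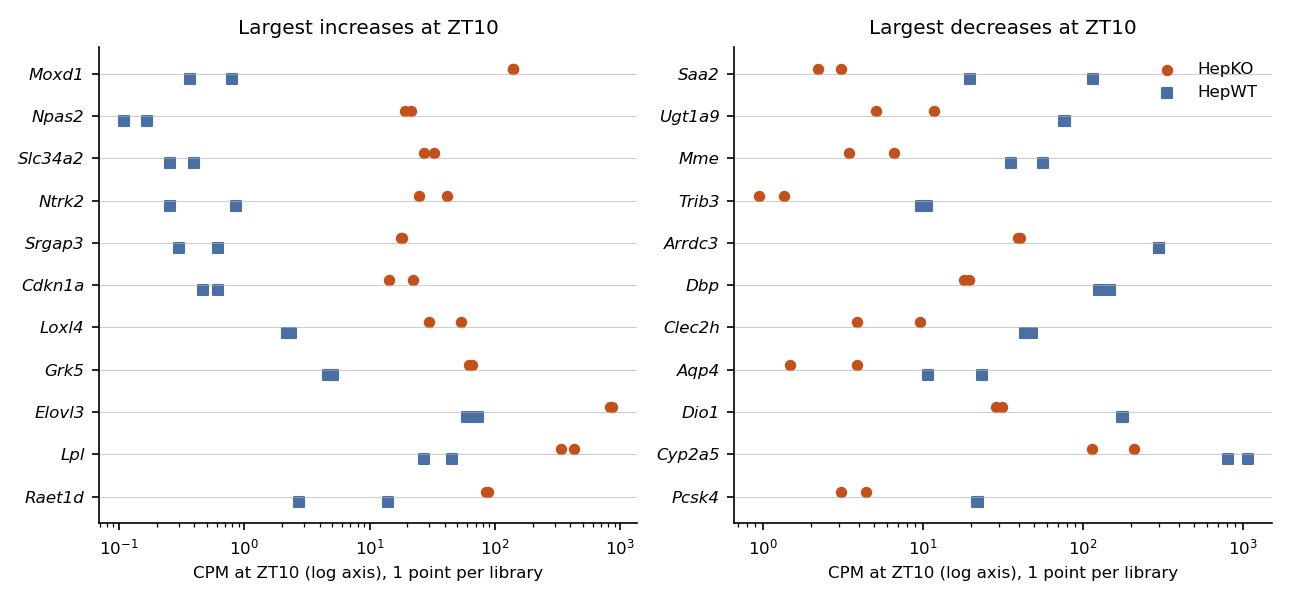
CPM at ZT10 (log axis) of the genes with the largest increases (left) and decreases (right) in HepKO, with 1 circle per HepKO library and 1 square per HepWT library. Genes were picked only where the 2 genotypes do not overlap, and the HepWT libraries of Saa2 lie at 116 and 19.8 CPM.

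What set late light apart was tested directly, as the log2 difference at ZT10 minus the mean log2 difference at the other 5 times. Over all tested genes 98 passed this contrast (0.567%). A gene is called ZT10-weighted where it passed both this contrast and the test at ZT10 in the same direction, which held for 57 higher genes (0.33% of tested genes) and 39 lower genes (0.226%). The 57 higher genes had a median log2 difference of 1.43 at ZT10 and 0.35 over the other 5 times, and the 39 lower genes had -1.09 and -0.17. These medians describe genes that the test picked and are not further evidence. The counts without 1 ZT10 library were 25 higher and 13 lower (HepKO replicate 1 left out), 29 and 13 (HepKO replicate 2), 26 and 20 (HepWT replicate 1) and 30 and 20 (HepWT replicate 2), and DESeq2 gave 91 and 83.

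In most of these genes it was the HepWT level that moved at ZT10. Each genotype's level at ZT10 was set against the mean of its own other 5 times. Among the 57 higher genes the median shift of the level was -0.0046 in HepKO and -0.9996 in HepWT (log2), and the HepWT shift was the larger in 53. HepWT had its lowest level of the 6 times at ZT10 in 38 of the 57, beside 17.5% of all tested genes. Among the 39 lower genes the median shift was -0.07 in HepKO and 0.78 in HepWT, the HepWT shift was the larger in 33, and HepWT had its highest level at ZT10 in 29, beside 18.3% of all tested genes. The shares follow in part from the contrast itself, which any large HepWT shift at ZT10 would pass.

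**Figure D4:**
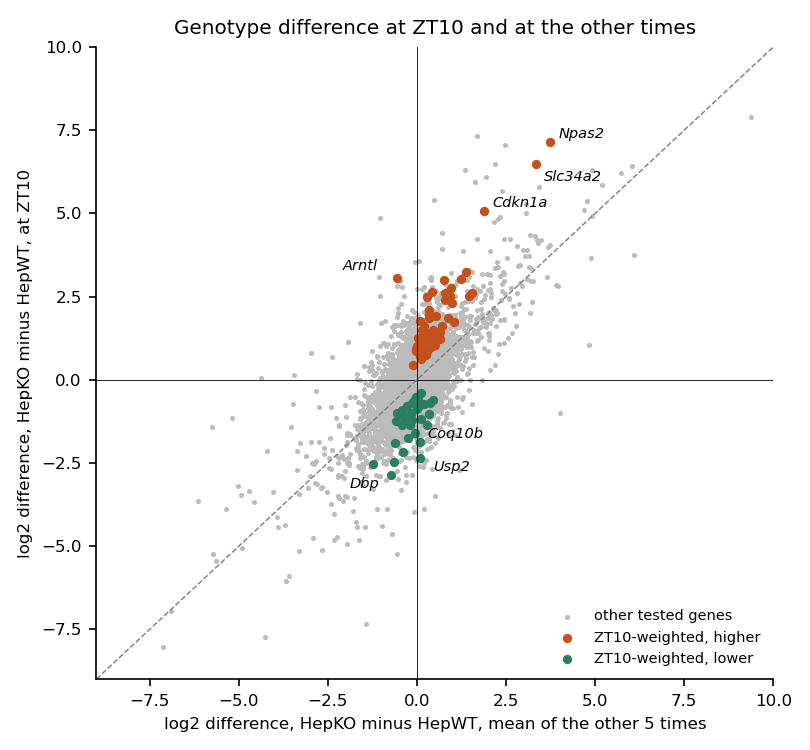
Log2 difference between HepKO and HepWT at ZT10 (vertical axis) against its mean at the other 5 times (horizontal axis), with 1 point per tested gene and the line of equal values dashed. The 57 ZT10-weighted higher genes lie above the line and the 39 lower genes below it, while Arntl is above 0 at ZT10 and below 0 on average at the other times.

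Arntl and Npas2, of the positive clock arm, led the higher ZT10-weighted genes. For Arntl the difference at ZT10 exceeded the mean of the other times by 3.61 ± 0.23 (adjusted p = 1.12e-07). The level at ZT10 minus the mean of the same genotype's other times was -0.34 in HepKO and -3.95 in HepWT (log2). Npas2 followed with 3.39 ± 0.48 (adjusted p = 0.0013), and its log2 difference was 1.54, 3.69, 6.73, 5.43 and 1.31 at ZT2, 6, 14, 18 and 22. The Npas2 call was lost under limma-voom (adjusted p = 0.218) and with HepWT replicate 1 or HepWT replicate 2 libraries alone (0.114 and 0.228). Clock (0.86 ± 0.13, adjusted p = 0.00206), Cry1 (1.06 ± 0.15, adjusted p = 0.00151) and Nfil3 (1.34 ± 0.26, adjusted p = 0.0232) passed too, Clock not without the 5 HepKO libraries of low depth (adjusted p = 0.0542). The adjusted p of Nfil3 was 0.185 without HepKO replicate 1 of ZT10, 0.106 without HepKO replicate 2 and 0.276 without HepWT replicate 2.

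Outside the clock, the higher ZT10-weighted genes held transporters, enzymes and regulators. Clpx, the chaperone subunit of a mitochondrial protease, had 491 and 457 CPM in HepKO, against 67.9 and 73.5 CPM in HepWT at ZT10 (log2 difference 2.75 ± 0.11, adjusted p = 5.5e-11). It had log2 differences of 0.23, 0.52, 2.45, 1.30 and 0.23 at ZT2, 6, 14, 18 and 22 and a ZT10-weighted difference of 1.80 ± 0.11 (adjusted p = 1.12e-07). Slc45a3, a solute carrier, had 50.3 and 41.5 CPM in HepKO, against 8.05 and 8.25 CPM in HepWT (log2 difference 2.50 ± 0.20, adjusted p = 5.19e-07). No other time had a log2 difference of Slc45a3 above 0.88, and its ZT10-weighted difference was 2.21 ± 0.21 (adjusted p = 3.62e-05). Lgalsl, a galectin-like protein, had 65.0 and 48.7 CPM in HepKO, against 6.74 and 7.15 CPM in HepWT (log2 difference 3.03 ± 0.20, adjusted p = 6.37e-08, ZT10-weighted 1.80 ± 0.21, adjusted p = 0.00026). Asap2, an Arf GTPase-activating protein, had 31.9 and 30.5 CPM in HepKO, against 2.94 and 3.69 CPM in HepWT (log2 difference 3.23 ± 0.20, adjusted p = 2.24e-08, ZT10-weighted 1.85 ± 0.21, adjusted p = 0.000137). These 4 genes were likewise picked only where the libraries did not overlap, and the ZT10-weighted call held when any single library was left out.

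Further genes with large values were less certain as ZT10-weighted. Cdkn1a had a ZT10-weighted difference of 3.203 ± 0.54 (adjusted p = 0.00651) and log2 differences of 1.06, 2.04, 4.45, 1.48 and 0.33 at ZT2, 6, 14, 18 and 22. Without HepKO replicate 1, HepWT replicate 1 or HepWT replicate 2 of ZT10 its adjusted p was 0.0721, 0.0694 and 0.123. Slc34a2 had 3.15 ± 0.65 (adjusted p = 0.0337), with 0.184, 0.0902, 0.356 and 0.236 as the adjusted p without each ZT10 library in turn (HepKO replicates 1 and 2, HepWT replicates 1 and 2), and above the threshold also without either HepKO library of ZT18 (0.0538 and 0.0513). Dnmt3b, a DNA methyltransferase, had 10.2 and 8.16 CPM in HepKO, against 1.12 and 1.20 CPM in HepWT (log2 difference 2.99 ± 0.45, adjusted p = 0.000402). Its ZT10-weighted difference was 2.23 ± 0.49 (adjusted p = 0.0463), a call lost in 25 of 38 alternatives, with an adjusted p of 0.351 without HepWT replicate 1 of ZT10.

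Among the lower ZT10-weighted genes, clock outputs again led. Usp2 had a ZT10-weighted difference of -2.44 ± 0.27 (adjusted p = 0.000127), with log2 differences of 1.34, 1.53, -1.35, -0.81 and -0.28 at ZT2, 6, 14, 18 and 22, positive at the first 2 of these times. Dbp had -2.14 ± 0.21 (adjusted p = 3.65e-05), and its level at ZT10 minus the genotype's own other times was 2.07 in HepKO and 4.20 in HepWT (log2). Wee1 had -1.94 ± 0.20 (adjusted p = 4.4e-05), Per3 -1.79 ± 0.18 (adjusted p = 3.65e-05), Coq10b -1.55 ± 0.15 (adjusted p = 2.65e-05) and Tef -1.29 ± 0.13 (adjusted p = 5.28e-05). These 6 calls held when any single library was left out. Per2, which did not pass at ZT10, had -1.13 ± 0.22 (adjusted p = 0.0203), with log2 differences of 2.13 at ZT2 and 1.83 at ZT6. Its contrast did not pass without any 1 of the ZT10 libraries, with an adjusted p of 0.295 without HepKO replicate 1 and 0.0517 without HepWT replicate 1.

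Metabolic genes were also among them. Slc5a6, the sodium-dependent transporter of biotin and pantothenate, had 7.35 and 6.29 CPM in HepKO, against 24.2 and 21.6 CPM in HepWT (log2 difference -1.74 ± 0.17, adjusted p = 4.35e-06, ZT10-weighted -1.48 ± 0.19, adjusted p = 0.000445). Thrsp, a regulator of fatty acid synthesis also called Spot14, had 74.8 and 85.5 CPM in HepKO, against 509 and 372 CPM in HepWT (log2 difference -2.46 ± 0.33, adjusted p = 0.000114). Its ZT10-weighted difference was -1.82 ± 0.35 (adjusted p = 0.0188), and the adjusted p was 0.248, 0.128 and 0.19 without HepKO replicate 1, HepKO replicate 2 or HepWT replicate 1 of ZT10. Azin1, an activator of polyamine synthesis, had 75.7 and 70.9 CPM in HepKO, against 143 and 148 CPM in HepWT (log2 difference -0.99 ± 0.14, adjusted p = 0.000273, ZT10-weighted -0.82 ± 0.16, adjusted p = 0.0201), and Cebpa, a hepatocyte transcription factor, had 228 and 207 CPM in HepKO, against 454 and 427 CPM in HepWT (log2 difference -1.02 ± 0.11, adjusted p = 9.5e-06, ZT10-weighted -0.56 ± 0.12, adjusted p = 0.0341). In all 4 genes both HepKO libraries were below both HepWT libraries. The ZT10-weighted calls of Azin1 and Cebpa were not tried with libraries left out. The table gives the symbol Ptp4a1, a phosphatase gene, to 2 gene IDs that overlap on the same strand, so reads may be split between them. Of these, ENSMUSG00000026064 had 1.44 and 1.62 CPM in HepKO, against 4.64 and 3.26 CPM in HepWT (log2 difference -1.37 ± 0.29, adjusted p = 0.00674), a call lost without HepKO replicate 1 or HepWT replicate 1 of ZT10 (adjusted p = 0.101 and 0.0944).

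Setting ZT10 against single times showed where it stood apart. Genes called at ZT10 that also passed in the same direction against 1 other time numbered 67 higher and 43 lower against ZT2, 32 and 24 against ZT6, 29 and 17 against ZT18, and 70 and 33 against ZT22. Against ZT14, the next time sampled and after the onset of feeding, edgeR called 0 genes in either direction. The smallest adjusted p was 0.0683, for Slc45a3, 1181 genes (6.84%) had an unadjusted p below 0.05, and DESeq2 called 40 genes, 28 of which were also called at ZT10. Against the mean of ZT6 and ZT14 together, 4 genes were higher (Arntl, Clpx, Lrfn3 and Slc45a3) and 7 lower (Coq10b, Dclre1c, Per3, Ripk4, Tbcel, Usp2 and Wee1). These contrasts all share the 4 ZT10 libraries. Arntl differed by 3.58 ± 0.27 (adjusted p = 2.57e-06) between ZT10 and ZT6 and by 1.54 ± 0.29 (adjusted p = 0.0801) between ZT10 and ZT14, and Clpx by 2.22 ± 0.14 (adjusted p = 3.98e-07) and 0.29 ± 0.14 (adjusted p = 0.732). For Usp2 the values were -3.89 ± 0.38 (adjusted p = 3.51e-05) and -1.01 ± 0.33 (adjusted p = 0.568). Slc45a3 had about the same excess on both sides, 1.70 ± 0.27 (adjusted p = 0.00537) and 1.62 ± 0.27 (adjusted p = 0.0683). Cry1 had -0.88 ± 0.20 (adjusted p = 0.0851) against ZT6 and 1.05 ± 0.19 (adjusted p = 0.0801) against ZT14, neither of which passed. Dbp did not pass against either, with -1.03 ± 0.27 (adjusted p = 0.147) and -0.21 ± 0.27 (adjusted p = 0.914). Tef passed against ZT6 (-1.31 ± 0.17, adjusted p = 0.00104) but not against ZT14 (-0.30 ± 0.17, adjusted p = 0.771).

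The elements printed above were then counted in the promoter windows, on both strands, for the genes with a RefSeq window: 11401 tested genes, 42 of the 57 higher and 32 of the 39 lower ZT10-weighted genes. The E-box CACGTG was in the windows of 4 higher genes (9.52%) and 9 lower genes (28.1%), beside 11.3% of all tested genes. The ROR element core TAGGTCA was found in 4 higher genes (9.52%), namely Arntl, Nfil3, Slc45a3 and Leo1, and in 0 lower genes, beside 2.51% of all. The D-box TTATGTAA was in 0 higher genes and 2 lower genes (6.25%), Per3 and Coq10b, beside 0.789% of all. None of the 3 motifs is contained in another. These are descriptions of few genes, a match is not a site of binding, and the absence of these letters from a short window says nothing about a factor.

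Lists of genes by pathway were read by their counts and medians at ZT10, against 3.73% of all genes higher, 3.98% lower and a median log2 difference of -0.01. Cholesterol synthesis and uptake had the largest share of increases: of 26 genes, 12 rose, 1 fell (Stard4, a sterol carrier, -0.57, adjusted p = 0.0187) and 13 did not pass, with a median of 0.68. Insig2, which holds the SREBP complex in the endoplasmic reticulum, had 424 and 394 CPM in HepKO, against 68.1 and 98.0 CPM in HepWT (log2 difference 2.30 ± 0.15, adjusted p = 4.81e-08) and was the only member called ZT10-weighted (1.31 ± 0.16, adjusted p = 0.00026). Of the enzymes, Fdps had 24.1 and 21.7 CPM in HepKO, against 8.77 and 9.55 CPM in HepWT (log2 difference 1.32 ± 0.19, adjusted p = 0.000217), and the HepKO libraries of this farnesyl diphosphate synthase were both above HepWT. Hmgcs1, which makes HMG-CoA, had 899 and 849.7 CPM in HepKO, against 259 and 335 CPM in HepWT (log2 difference 1.56 ± 0.34, adjusted p = 0.0073) and an adjusted p of 0.0512 and 0.103 without HepKO replicate 1 or HepWT replicate 1 of ZT10. Lss, lanosterol synthase, had 127 and 119 CPM in HepKO, against 52.3 and 57.2 CPM in HepWT (log2 difference 1.17 ± 0.24, adjusted p = 0.00492), and 0.0646 without HepWT replicate 1. Over the other 5 times the median of the list was 0.84.

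Fatty acid genes were lower more often than higher. Of 26 genes that serve the synthesis of fatty acids and triglycerides 5 fell, 2 rose (Elovl3 and Agpat2) and 19 did not pass, with a median of -0.33. Besides Thrsp, the decreases were Srebf1, the lipogenic SREBP gene (-1.06, adjusted p = 0.0158), the desaturase Fads2 (-1.11, adjusted p = 0.0161), Lpin2 (-0.93, adjusted p = 0.0194) and Dgat2 (-0.68, adjusted p = 0.00743, and 0.102 without HepWT replicate 1 of ZT10), while Fasn (-0.78, adjusted p = 0.223) and Scd1 (-0.34, adjusted p = 0.791) did not pass. Of 38 PPARA targets and genes of fatty acid oxidation 9 fell, 1 rose and 28 did not pass, with a median of -0.28. The receptor Ppara itself had 123 and 114 CPM in HepKO, against 230.5 and 235 CPM in HepWT (log2 difference -0.98 ± 0.19, adjusted p = 0.00344). Cpt1a, which brings fatty acids into mitochondria, had 435 and 378 CPM in HepKO, against 564 and 696 CPM in HepWT (log2 difference -0.63 ± 0.12, adjusted p = 0.00357), and the peroxisomal thiolase Acaa1a had 79.2 and 81.5 CPM in HepKO, against 149.9 and 144 CPM in HepWT (log2 difference -0.87 ± 0.11, adjusted p = 6.71e-05). The libraries of these 3 genes did not overlap. The member that rose was Pdk4, the kinase that turns off pyruvate dehydrogenase, with 21.9 and 16.4 CPM in HepKO, against 2.50 and 1.63 CPM in HepWT (log2 difference 3.22 ± 0.58, adjusted p = 0.00169). None of these genes but Thrsp was ZT10-weighted.

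Carbohydrate genes changed singly. Of 28 genes of glucose and glycogen metabolism 2 rose, 3 fell and 23 did not pass (median -0.15). Gys2, the glycogen synthase of liver, had 95.8 and 105 CPM in HepKO, against 353 and 368 CPM in HepWT (log2 difference -1.84 ± 0.16, adjusted p = 9.49e-07). Ppp1r3b, which targets a phosphatase to glycogen, had 308 and 274 CPM in HepKO, against 100.1 and 60.7 CPM in HepWT (log2 difference 1.85 ± 0.30, adjusted p = 0.000691) and was ZT10-weighted (1.51 ± 0.32, adjusted p = 0.0425). Its log2 difference was close to 0 at ZT14, 18 and 22 (-0.00, -0.03 and -0.11). Set against single other times, its excess at ZT10 passed only against ZT22, and not against ZT2 or ZT6. The glucose transporter Slc2a2 had 274 and 292 CPM in HepKO, against 565 and 537 CPM in HepWT (log2 difference -0.96 ± 0.18, adjusted p = 0.00245). In Gys2 and Slc2a2 the HepKO libraries were both below HepWT, and in Ppp1r3b both above.

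Detoxification genes went both ways. Of 44 tested genes of xenobiotic metabolism 8 rose, 9 fell and 27 did not pass (median -0.17), and none was ZT10-weighted. The mu-class glutathione transferases Gstm1, Gstm2, Gstm3 and Gstm6 rose, with log2 differences of 1.05, 2.42, 2.29 and 1.74. They are close paralogues whose reads can be hard to assign. Gstm2 had 223 and 263 CPM in HepKO, against 46.2 and 44.7 CPM in HepWT (log2 difference 2.42 ± 0.19, adjusted p = 3.12e-07). The cytochromes Cyp2c29, Cyp2c37, Cyp2c55 and Cyp2b10 rose as well (1.02, 1.29, 3.09 and 2.12). Por, the reductase that serves microsomal cytochromes, fell, with 132 and 118 CPM in HepKO, against 417 and 329 CPM in HepWT (log2 difference -1.58 ± 0.22, adjusted p = 0.000142), and Nr1i3 (CAR), a receptor for foreign compounds, fell too (-0.90, adjusted p = 0.0352). The decreases also held Cyp2a5, Ces1d (-1.36), Gstt2 (-1.85) and Sult1a1 (-1.28).

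Among the other lists, bile acid synthesis and transport had 3 higher and 2 lower of 22 (median -0.02), and the urea cycle and amino acid breakdown 3 and 2 of 34 (median 0.05). Pericentral hepatocyte genes had 6 higher and 1 lower of 22 (median 0.08), while Glul (-0.17, adjusted p = 0.729) and Cyp2e1 (-0.07, adjusted p = 0.89), the defining genes of that zone, did not pass. Periportal genes had 1 higher and 3 lower of 22 (median -0.35). Insulin signalling and FOXO targets had 3 higher and 3 lower of 28 (median -0.05), and autophagy 2 and 3 of 26 (median -0.13). Female-biased genes had 2 higher and 5 lower of 21 tested (median -0.72, and -0.97 over the other 5 times), and male-biased genes 2 higher and 1 lower of 24 (median 0.04). Of 79 cytosolic ribosomal protein genes 6 rose and 0 fell (median 0.22), and in 65 of them both HepKO libraries were above both HepWT libraries, beside 25.8% of all genes. The largest of these 6 was Rpl12 (log2 difference 0.49 ± 0.11, adjusted p = 0.013), lost without HepKO replicate 1, HepKO replicate 2 or HepWT replicate 2 of ZT10 (adjusted p = 0.0584, 0.0983 and 0.145). Ribosome biogenesis had 2 higher and 0 lower of 42 (median 0.17).

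**Figure D5:**
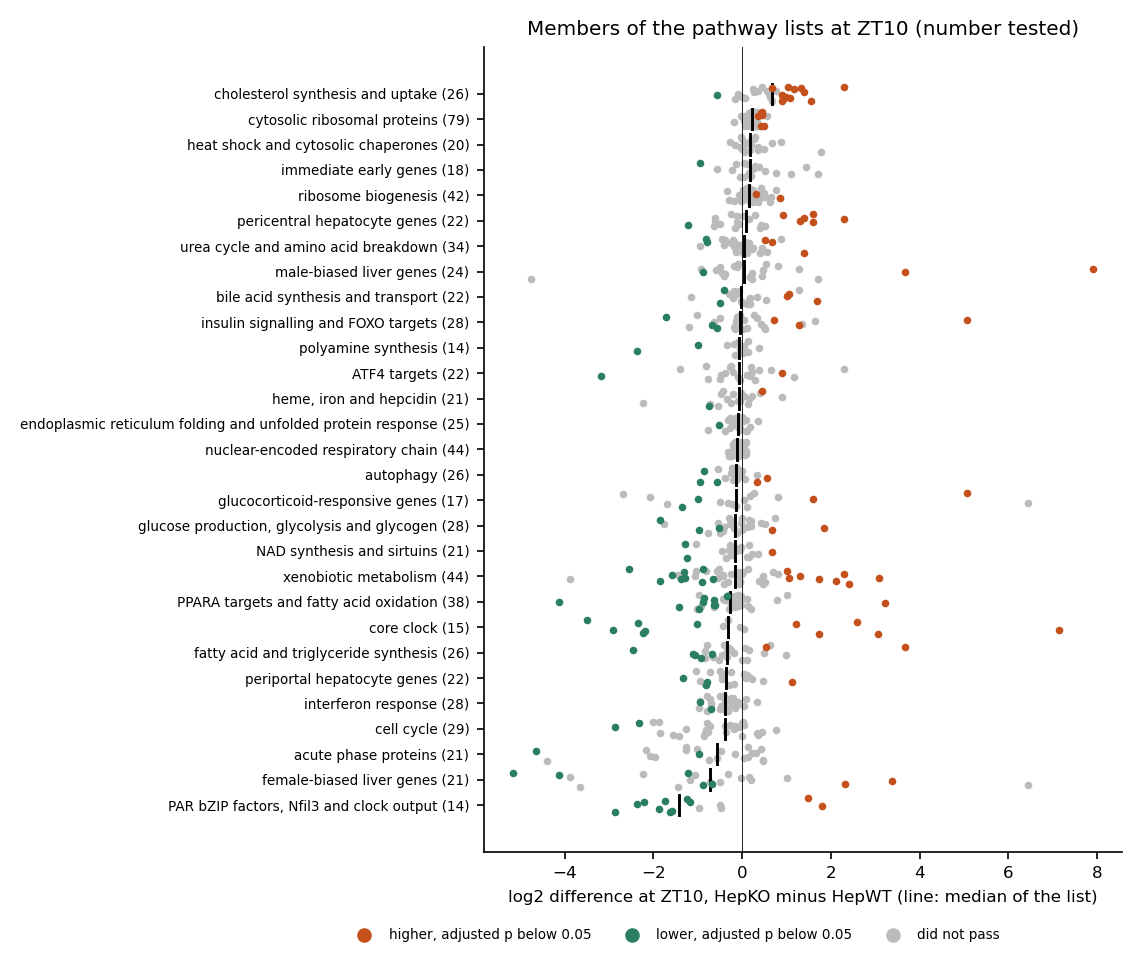
Log2 difference at ZT10, HepKO minus HepWT (horizontal axis), of the tested members of each pathway list (rows, with the number tested), coloured by the test, with the median of each list as a black line. Cholesterol synthesis has the highest median (0.68) and the list of PAR bZIP factors and clock output the lowest (-1.41).

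Short lists with few calls are given by their counts, beside 7.71% of all tested genes called in either direction. By edgeR's quasi-likelihood test 0 of 20 heat shock and chaperone genes and 0 of 44 nuclear-encoded respiratory chain genes passed, while at an unadjusted p below 0.05 the counts were 2 and 7, and DESeq2 called 1 gene in each. In 31 of the 44 respiratory chain genes both HepKO libraries were below both HepWT libraries, and in 2 above (median -0.12). In 10 of the 20 heat shock genes they were above, and in 1 below (median 0.18). Of all tested genes, 25.8% were separated higher and 27.4% lower. Endoplasmic reticulum folding genes had 0 higher and 1 lower of 25, ATF4 targets 1 and 1 of 22, heme and iron genes 1 and 1 of 21, NAD synthesis and sirtuins 1 and 2 of 21, polyamine synthesis 0 and 2 of 14, glucocorticoid-responsive genes 2 and 2 of 17, and immediate early genes 0 and 1 of 18.

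Markers of the cell types of liver were read beside these results, again against 3.73% of all tested genes higher and 3.98% lower. Hepatocyte markers summed to 93678 and 105081 CPM in HepKO and 144089 and 146625 CPM in HepWT. Of 20 markers 1 was higher, 4 were lower and 15 did not pass, with a median log2 difference of -0.14. Most of the difference between the sums was albumin. Albumin itself, whose promoter drives Cre, had 23148 and 26992 CPM in HepKO, against 61608 and 64920.0 CPM in HepWT (log2 difference -1.34 ± 0.22, adjusted p = 0.000691), and its log2 difference was -1.64, -1.46, -1.04, -1.43 and -1.25 at ZT2, 6, 14, 18 and 22. Kupffer cell and macrophage markers summed to 411 and 475 CPM in HepKO and 563 and 604 CPM in HepWT. Of 17 markers 1 was higher (Mpeg1), 4 were lower (Vsig4, Cd5l, C1qb and Folr2) and 12 did not pass. Their median log2 difference was -0.61 at ZT10 and -0.30 over the other 5 times. By edgeR 14 of the 17 had an unadjusted p below 0.05, and DESeq2 called 1 higher and 6 lower. In 13 of the 17 both HepKO libraries were below both HepWT libraries, and in 1 above, beside 27.4% and 25.8% of all tested genes. The calls of Mpeg1 and C1qb were lost without any 1 of the 4 ZT10 libraries (adjusted p up to 0.188 without HepWT replicate 2 for Mpeg1 and 0.261 without HepKO replicate 1 for C1qb). Those of Vsig4 and Cd5l were lost without HepKO replicate 1 (adjusted p = 0.261 and 0.295), HepWT replicate 1 (0.12 and 0.112) or HepWT replicate 2 (0.0879 and 0.105). In bulk RNA, fewer cells of a type and less RNA per cell cannot be told apart. Of 28 interferon response genes 0 were higher, 2 lower (Irf1 and Gbp7) and 26 not passed (median -0.38), and of 21 acute phase genes 0 were higher, 2 lower (Saa2 and Hpx) and 19 not passed (median -0.56). The calls of Irf1, Gbp7 and Hpx were lost without any 1 of the 4 ZT10 libraries, with adjusted p values up to 0.179 (Irf1, without HepWT replicate 2), 0.237 (Gbp7, without HepKO replicate 1) and 0.213 (Hpx, without HepWT replicate 1). The part of Kupffer cells in those values was not tested. Cell cycle genes had 0 higher and 2 lower of 29 (median -0.39).

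The other cell types had at most 1 call each. Endothelial markers summed to 681 and 656 CPM in HepKO and 720 and 680 CPM in HepWT, and stellate and fibroblast markers to 693 and 612 CPM in HepKO and 695 and 670 CPM in HepWT, with 0 of 18 and 0 of 17 passing in edgeR and in DESeq2 and 2 and 1 at an unadjusted p below 0.05. Cholangiocyte markers had 1 higher of 10 tested, Sox9 (5.95 and 5.31 CPM in HepKO and 1.92 and 1.36 CPM in HepWT, log2 difference 1.78 ± 0.38, adjusted p = 0.00619). Its call was lost without HepKO replicate 1 or HepWT replicate 2 of ZT10 (adjusted p = 0.0626 and 0.0862). T and NK cell markers had 0 calls of 13 in edgeR and DESeq2 (2 at an unadjusted p below 0.05), and B and plasma cell markers 1 lower of 11. This was Blnk (-2.05, adjusted p = 0.00926), lost without HepKO replicate 1, HepKO replicate 2 or HepWT replicate 1 of ZT10 (adjusted p = 0.104, 0.0708 and 0.115). Neutrophil markers summed to 2.08 and 2.85 CPM in HepKO and 5.002 and 3.96 CPM in HepWT, with Mpo and Ly6g at 0 in all 4 libraries. Erythroid markers summed to 92.4 and 131 CPM in HepKO and 167 and 152 CPM in HepWT, with 0 calls of 8 in edgeR, DESeq2 or at an unadjusted p below 0.05. Their median log2 difference was -1.43 at ZT10 and -0.26 over the other 5 times. In 6 of the 8 both HepKO libraries were below both HepWT libraries, beside 27.4% of all tested genes. Adipocyte markers had 1 lower of 9, Lipe (-0.90, adjusted p = 0.00208). Of 11 markers of exocrine pancreas 6 were at 0 in all 4 libraries, and the sum of 32.1 and 33.5 CPM in HepKO and 12.8 and 12.4 CPM in HepWT was nearly all Cela1 (31.9 and 33.2 CPM in HepKO and 12.3 and 12.1 CPM in HepWT, log2 difference 1.41 ± 0.22, adjusted p = 0.00055). Skeletal muscle markers summed to less than 1 CPM in each library.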

How the data were processed

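Liver RNA was sequenced as stranded, ribosome-depleted, paired-end libraries per the labels' protocols, and STAR 2.4.0i and mm10 are named in the submitters' processing notes. The deposited values are raw counts per gene. For the counting tool, its annotation and its strand setting, nothing is given in the sources used here. Of 35304 rows, 1057 had no symbol of their own and are named by gene ID. The 24 libraries held 12997689 to 30677807 counts.

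From these counts, 17275 genes passed filterByExpr (minimum count 10, total 15). TMM scaling and edgeR 4.0.16's quasi-likelihood F test (R 4.3.3, two-sided, 12 groups, 12 residual degrees of freedom) gave the difference at ZT10, and the same fit gave ZT10 minus the mean of the other 5 times. P values were Benjamini-Hochberg adjusted. SE is the log2 difference over the square root of F. Alternatives used DESeq2 1.42.0, limma-voom (limma 3.58.1), other filters and scalings, other comparison times and libraries left out. The test was tried on simulated data first.

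Members and lists were chosen with earlier results of these data known. Named genes were the core clock genes with Dbp, Tef, Hlf and Nfil3, the 12 largest changes each way at ZT10 and the 10 largest ZT10-weighted each way (mean log2 CPM of at least 1, libraries not overlapping), and up to 4 genes per list by p. Gene models without a full name were left out of the text, a few genes taken by the rule are not reported here, and further list members are named where a count is described. Positions are from GENCODE M21 on GRCm38.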

Additional observations from a re-analysis of the deposited data

Results flagged for a closer look

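The genotype difference at ZT10 departed from the mean of the other 5 times in 25 named genes, by edgeR's test of that difference itself. These are clock and clock output genes, the largest changes and the top ZT10-weighted genes. Azin1, Cebpa, Insig2 and Ppp1r3b, named from lists, passed too, but their ZT10-weighted calls were not tried with libraries left out. The values are log2, ZT10 minus the other times, each from 4 ZT10 libraries and 20 others. In the core clock they were 3.61 for Arntl, 3.39 for Npas2, 1.06 for Cry1, 0.86 for Clock, -1.79 for Per3, -1.35 for Bhlhe40 and -1.13 for Per2, the last of which did not pass the test at ZT10. For the bZIP factors they were -2.14 for Dbp, -1.29 for Tef and 1.34 for Nfil3.

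Other genes with a higher difference at ZT10 were Cdkn1a (3.203), Slc34a2 (3.15), Dnmt3b (2.23), Slc45a3 (2.21), Asap2 (1.85), Lgalsl (1.80) and Clpx (1.80). Those with a lower one were Usp2 (-2.44), Wee1 (-1.94), Thrsp (-1.82), ENSMUSG00000026064 (-1.64), Coq10b (-1.55), Slc5a6 (-1.48), Pcsk4 (-1.29) and Nampt (-0.65). The call held in all 34 alternatives that keep the other 5 times for 13 of the 25 genes, namely Arntl, Asap2, Clpx, Coq10b, Cry1, Dbp, Lgalsl, Per3, Slc45a3, Slc5a6, Tef, Usp2 and Wee1. Over all 38 alternatives, which add other comparison times, 0 of the 25 kept the call and 3 changed sign in some. Against ZT14 alone, 0 passed.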

How the results depend on the processing

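Of 121 named genes called at ZT10, 62 kept their call in every one of 36 alternatives, 59 lost it in some and 0 changed sign. Single genes were judged by the adjusted p alone, so the 2-fold setting, 1 of the 36, could not remove a gene's call. Some of the 62 differed by less than 2-fold. Counts of higher and lower genes at ZT10 (644 and 688) were 329 and 320 at an adjusted p below 0.01, 289 and 262 at least 2-fold, 1041 and 1091 with the 4 ZT10 libraries alone, 292 and 222 once the 5 low-depth HepKO libraries were left out, and 923 and 1107 with no low-count filter. ZT10-weighted counts (57 and 39) were 28 and 18 at an adjusted p below 0.01, 91 and 83 by DESeq2, 23 and 9 with those 5 left out, 215 and 242 with no filter, and 47 and 18 with HepWT replicate 1 libraries alone. Against ZT6 and ZT14 they were 4 and 7, against ZT6 32 and 24, against ZT14 0 and 0, and against ZT2 and ZT6 81 and 61. Leaving out 1 library gave 313 to 701 higher and 246 to 730 lower genes, and 25 to 68 and 13 to 53 ZT10-weighted. Signs turned for Cry1 (-0.88 against ZT6, -0.11 against ZT2 and ZT6), Pcsk4 (0.41 against ZT14) and Nampt (0.59 against ZT14). Cry2, not called at ZT10, was 0.0027 with those 5 left out, 0.0802 with HepWT replicate 2 libraries alone and -0.181 to 0.0784 with 1 library left out. The cause was not tested. With a replicate block the counts were 664 and 710, and 51 and 39. Same-numbered libraries did not pair throughout: correlations of replicate differences ran from -0.24 to 0.43 over 66 pairs of groups (median 0.014), 21 of them over 0.1. Whether some groups shared a batch was not tested. The 2 libraries a group and the low depth of 1 HepKO library at ZT10 limit the precision of every value.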
